A study of Oncorhynchus mykiss with 18 samples.

Results

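The microRNAs (miRNAs) described here are those counted in the epidermal mucus of rainbow trout (Oncorhynchus mykiss), before and after an acute air stressor. They were taken from the deposited count table as the rows that carry the name of an Atlantic salmon miRNA, called known miRNAs. The table holds 212 such rows of 4884, and the other 4672 are named by a genomic location and were left out. Of the known rows, 34 share every count of all 18 libraries with another row, in 16 sets, and each set was kept once. This left 194 rows, of which 140 had a count in mucus and 54 were listed at 0 in all 6 mucus libraries. Rows were described singly and summed by miRNA number and arm, which gave 95 families with a count in mucus, 28 of them with at least 2 counted rows.

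Control mucus came from trout that had not been exposed to air, and stressed mucus came from trout sampled 1 h after 3 min in air. Each treatment has 3 libraries, 1 for each replicate of the experiment, and each library is the mucus of 1 fish. Fish were euthanized before mucus was scraped from the skin, so control and stressed mucus of a replicate number are from different fish of the same tank. No strain, allele or drug treatment separates the groups. The bath of MS-222 used for euthanasia was common to both, and a control of handling without air was not among the 6 libraries.

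A miRNA is cut from a hairpin precursor, of which the 5p and 3p arms can each give a mature RNA that lowers the output of matching messenger RNAs. Members of a family that share the seed, bases 2 to 8 of the mature RNA, are thought to reach overlapping targets, and their sequences can differ by as little as 1 base. Fish mucus is secreted by goblet cells of the epidermis and also carries shed epithelial and immune cells, so its miRNAs can come from several cell types.

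One sequence is shown because the only miRNA called below carries it. The forward primer that the study used for miR-26a-5p has the letters of a read of 22 bases, printed with its seed in capitals, which also appears in the supplement's lists of the most frequent trimmed reads.

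miR-26a-5p: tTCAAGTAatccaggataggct

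This read is among the frequent reads of control replicates 1 and 2, and it is not on the lists of control replicate 3 or of the 3 stressed libraries. In the deposited table the miR-26a-5p count is 0 in all 3 control libraries. A 0 in that table is therefore reported here as a listing and not as an absence of reads. How the table assigned these reads was not tested.

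Known counts kept once ranged from 488064 to 1457892 in control libraries and from 344347 to 1322996 in stressed libraries. Kept rows with a count numbered 114, 112 and 82 in control replicates 1, 2 and 3 and 95, 86 and 112 in the stressed replicates. The means were 103 ± 17.9 and 97.7 ± 13.2 (SD, n = 3), a difference of -5 rows that is smaller than the spread within either treatment (2-sided exact permutation test, p = 0.9, where 3 libraries against 3 cannot go below 0.1). Counted in all 6 libraries were 67 rows and 53 families. No pair of libraries agreed within sampling noise. Across the 91 rows tested below, counts ranked alike in the stressed libraries (Spearman's rho of 0.836 to 0.917 between pairs) and less so in the control libraries (0.573 to 0.726), a description over rows of shared libraries with no test.

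Among the sets of cell type markers used here, that of epidermis had by far the highest sum in every library. The white cell set left out miR-146, which the leukocyte list below includes. The row miR-146a-5p alone had 318654 to 909083 CPM, above the epidermal sum in every library. The summed level of miR-203, miR-205, miR-200 and miR-429 was 74499 to 205270 CPM in control and 163063 to 205331 CPM in stressed mucus, a sum in which 3 miR-200a rows with nearly equal counts each enter. CPM here are counts per 1e+06 counts of the rows that passed the filter on low counts given below. Library sizes were adjusted by the trimmed mean of M-values (TMM) of edgeR. Single rows and families were scaled apart, so their CPM differ in scale. The fifth epidermal marker, miR-141, has no row in the table.

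**Figure D1:**
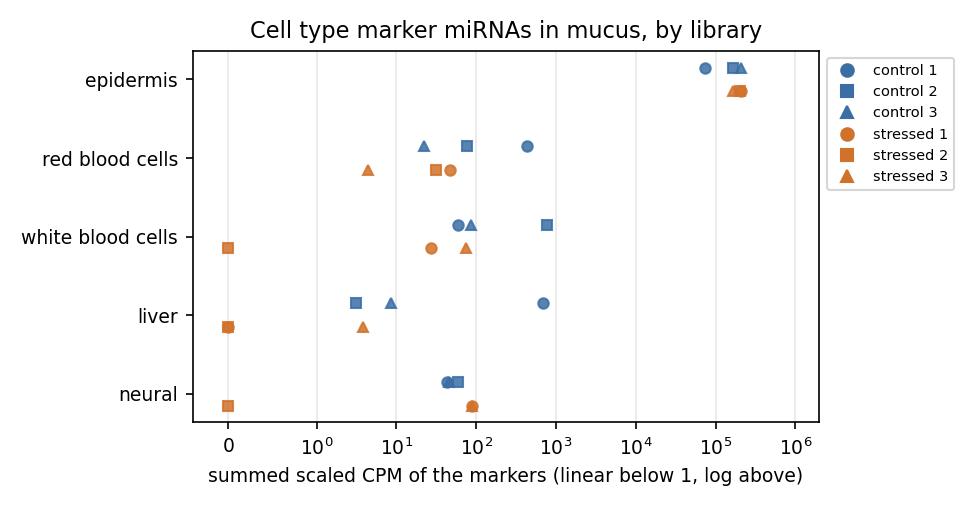
Summed scaled CPM of each set of cell type marker miRNAs (x axis, linear below 1 and log above) in the 3 control (blue) and 3 stressed (orange) mucus libraries. Epidermal markers lie between 74499 and 205331 CPM in all 6 libraries, while the red cell and liver markers are highest in control replicate 1 and the white cell markers in control replicate 2.

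The chosen markers of other tissues were low, and those of red cells, white cells and liver were uneven among the control libraries. miR-144, a red blood cell miRNA, stood at 433 CPM in control replicate 1, 75.6 in control replicate 2 and 22.5 in control replicate 3, and at 46.9, 31.6 and 4.42 CPM in the stressed libraries. The other red cell marker, miR-451, has no row. miR-122, the main miRNA of liver, had counts of 623, 6 and 3 in control and 0, 0 and 6 in stressed libraries. White blood cell markers miR-142 and miR-150 together reached 771 CPM in control replicate 2, against 58.9 and 87.1 CPM in the other control libraries and 0 to 74.5 CPM in stressed libraries, and miR-223 has no row. The muscle markers miR-1, miR-133 and miR-206 were listed at 0 in all 6 libraries, and of the neural markers miR-9 lay at 0 to 88.4 CPM while miR-124 has no row. These levels move with several results below, and their part in them was not tested. In bulk samples, fewer cells of a type and less RNA per cell cannot be told apart.

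The 10 most abundant families held 89.2% to 97.2% of the known counts of each library. The most abundant family in each library was miR-146-5p, whose mammalian counterpart dampens innate immune signalling. It took 33.5%, 54.7% and 66.4% of known counts in control replicates 1, 2 and 3, and 67.2%, 56.9% and 44.5% in the stressed replicates. The treatments overlapped, and the fitted change was 0.37 ± 0.60 (log2, stressed over control, ± SE), or -0.19 without stressed replicate 1. Nearly all of it was miR-146a-5p, at 97.9% to 99.9% of the family.

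**Figure D2:**
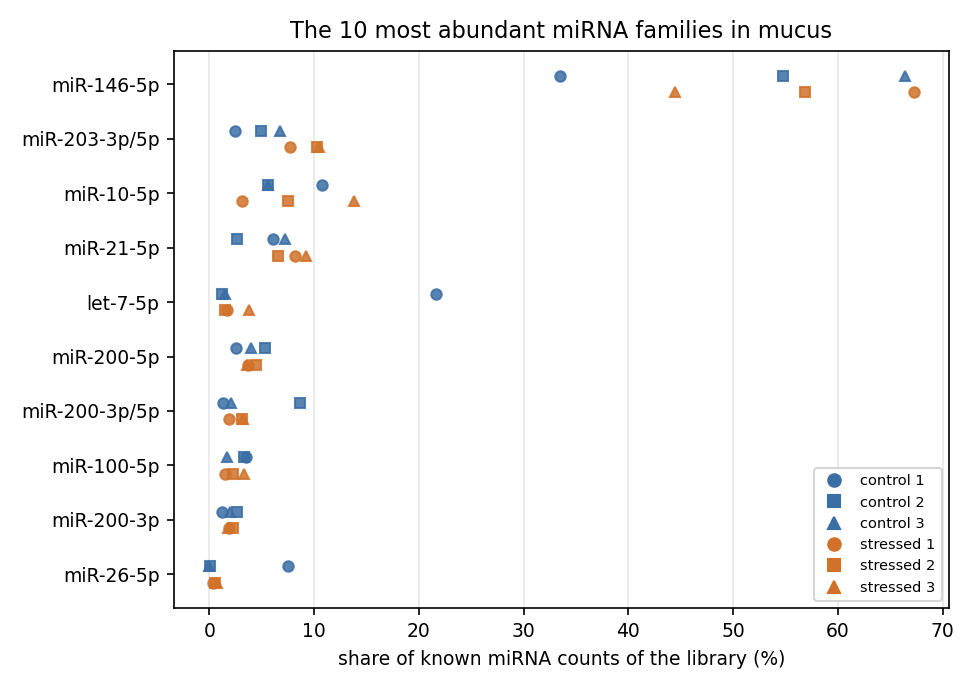
Share of known miRNA counts (x axis, percent) taken by the 10 families of highest mean level, in each control (blue) and stressed (orange) library. miR-146-5p takes 33.5% to 67.2%, let-7-5p and miR-26-5p are high in control replicate 1 alone, and of these families only miR-203-3p/5p has all 3 stressed libraries above the controls.

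miR-203, which in mammalian skin turns on as keratinocytes leave the cell cycle, was second by scaled CPM averaged over the 6 libraries, close to miR-10-5p. By share it was second in stressed replicate 2 alone. The 5p and 3p rows of miR-203 hold the same counts, so they form 1 family here. Its share of known counts was 2.47%, 4.97% and 6.76% in control and 7.71%, 10.2% and 10.4% in stressed libraries. Shares in all 3 stressed libraries lay above those of all 3 controls. On this share, 5 of the 65 tested families (7.69%) were higher in every stressed library and 1 (1.54%) was lower. Together these were not above the rate of 0.1 for a random order of libraries. After TMM scaling the miR-203 levels overlapped, at 47624 ± 34141 CPM in control and 102263 ± 19023 CPM in stressed mucus (SD, n = 3), and the fitted change of 1.10 ± 0.61 was not called (edgeR quasi-likelihood FDR = 0.64). The other families of this kind were miR-148-3p, miR-15-5p, miR-429-3p/5p and miR-93-5p, and the lower one was miR-192-5p.

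miR-10-5p, whose genes lie in the Hox clusters, took 3.09% to 13.8% of known counts, and miR-100-5p, whose sequence is related, took 1.45% to 3.53%. miR-21-5p, which is abundant in many epithelia, took 2.66% to 9.26%. miR-200, which maintains the epithelial state in mammals, was split over 3 families of 3p, 5p and shared rows at 1.25% to 8.69%. The treatments overlapped in each of them. A share printed for a single library has a 95% Wilson interval of at most 0.165 percentage points to either side, which covers counting error only, since PCR copies of 1 molecule are counted as separate reads.

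let-7-5p and miR-26-5p were set apart by 1 library. let-7, a family first known for timing development in nematodes, took 21.6% of known counts in control replicate 1 and 1.25% to 3.82% in the other 5 libraries. miR-26-5p took 7.49% in control replicate 1, 0.0195% in control replicate 2, 0 of 488064 counts in control replicate 3 and 0.330% to 0.770% in the stressed libraries. Fitted changes were -1.79 ± 1.17 for let-7-5p and -2.20 ± 2.49 for miR-26-5p (log2), and neither was called. Without control replicate 1 they turned to 0.70 and 6.18, and with the replicate number as a block miR-26-5p was at 5.32.

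The question of the comparison was whether any known miRNA of mucus differed 1 h after air exposure. Of the 140 rows, 91 passed the filter on low counts and were compared in edgeR (quasi-likelihood), under the study's thresholds for a call. These ask for a p of at most 0.05, a false discovery rate (FDR) below 0.1 and a log2 fold change beyond 2 in either direction. One row (1.1%) was called, miR-26a-5p, whose counts in the deposited table were higher in stressed mucus. The read printed above was on the frequent-read lists of control replicates 1 and 2 and of no stressed library. Those lists hold only the most frequent of all trimmed reads, so absence from a list is not absence of the read. They are not on the scale of the known counts, so no direction is drawn from them. Whether the RNA itself was higher in stressed mucus was not tested. It was counted at 2295, 1559 and 9404 in stressed replicates 1, 2 and 3 and at 0 in all 3 control libraries. Against a floor of 3 counts over the control libraries, its mean level of 4854 CPM in stressed mucus was at least 5180-fold higher in the table's counts (edgeR quasi-likelihood FDR = 0.00988, higher in 3 of 3 stressed libraries). At a p of at most 0.05 before adjustment there were 4 rows. Over all 140 rows with no filter, DESeq2's Wald test called 9. Of these, let-7b-5p, miR-125a-5p, miR-142a-5p, miR-24a-3p and miR-30b-5p were not among the 91. Over the 91 rows, edgeR's exact test (common dispersion) called 5. Both tests called miR-26a-5p. Its quasi-likelihood call was lost without any 1 of the stressed libraries (FDR of 0.131 to 0.175) and with the replicate number as a block (FDR = 0.631).

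The other miR-26 rows did not follow miR-26a-5p. miR-26b-5p was counted at 33015, 217 and 0 in control and at 172, 207 and 732 in stressed libraries. miR-26d-5p was counted at 32465, 68 and 0 in control and at 0, 0 and 49 in stressed libraries. In control replicate 1 the counts of these 2 rows were thus nearly equal and miR-26a-5p was at 0, whereas miR-26a-5p took 93.0%, 88.3% and 92.3% of the family in stressed replicates 1, 2 and 3. In control replicate 2 the family came to 285 counts. No upper limit for the miR-26a-5p share is drawn from the 0 in that library, since its frequent reads include the read printed above. The fitted changes of miR-26b-5p and miR-26d-5p were both below 0 and neither was called (edgeR quasi-likelihood FDR of 0.631 and 0.58). These directions rest on control replicate 1, without which miR-26b-5p was at 2.90 and miR-26d-5p at -0.83, and miR-26b-5p was at 2.29 with the replicate block. miR-26a-4-3p, of the other arm, had 42 counts in control replicate 2 only.

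The same 3 rows in the other sample types of the series show which listings at 0 are shared. In the 6 plasma libraries miR-26a-5p had 170595 to 1115839 counts, above miR-26b-5p in each. In the 3 control water libraries miR-26a-5p was also listed at 0 while miR-26b-5p had 3433 to 4213 counts. In stressed water it was listed at 33052, 23340 and 0. Control water replicate 3 had 3773 counts of miR-26b-5p and 3739 of miR-26d-5p, nearly equal as in control mucus replicate 1.

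**Figure D3:**
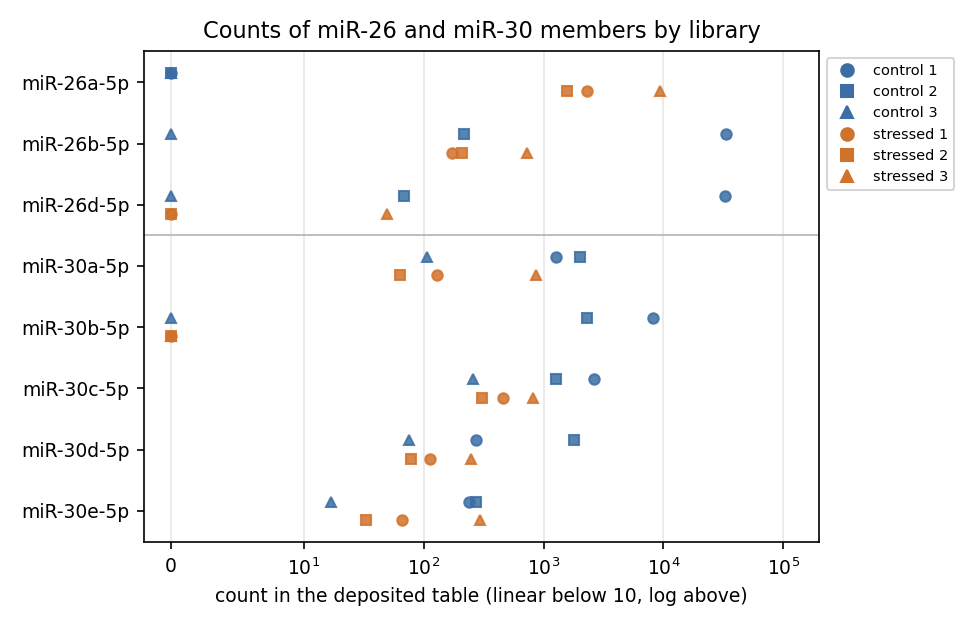
Counts of the miR-26-5p and miR-30-5p members (x axis, linear below 10 and log above) in each control (blue) and stressed (orange) library. miR-26a-5p is at 0 in the 3 control libraries and at 1559 to 9404 in the stressed ones, and miR-30b-5p is counted in control replicates 1 and 2 alone.

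A further 6 rows were at 0 in every library of 1 treatment and had at least 10 counts in 2 libraries of the other. None could pass the filter, which asks for counts in 3 libraries, so the quasi-likelihood test above did not cover them. Of the 6, 5 were counted in control mucus. miR-30b-5p had 8238 and 2313 counts in control replicates 1 and 2, at least 2856-fold more than the floor of stressed mucus in the table's counts. let-7b-5p had 2237 and 493 counts in the same libraries (at least 756-fold). miR-125a-5p, whose family relates to the lin-4 RNA of nematodes, had 471 and 3054 counts (at least 578-fold). Since a 0 is a listing here, these folds and those below are bounds on the table's counts and not on RNA in mucus. In mucus that was not sequenced, the study's quantitative PCR gave a much smaller decrease of miR-30b-5p, short of its significance threshold.

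The remaining rows of this kind were lower in count. miR-142a-5p, a miRNA of blood cells, had 1318 counts in control replicate 2 and 23 in control replicate 3 (at least 205-fold). It is 1 of the 2 counted white cell markers above, at 677 of their 771 CPM in control replicate 2. miR-23b-5p had 174 and 167 counts in control replicates 1 and 2 (at least 77.1-fold). In the other direction, miR-24a-3p had 215 and 161 counts in stressed replicates 1 and 2 and 0 in stressed replicate 3 (at least 303-fold). In each of these 6 rows, 1 library of the treatment that holds the counts was itself at 0, so the treatments overlapped. Fitted with no filter, their unadjusted p lay between 0.0286 and 0.0478 and their FDR was 0.522 (edgeR quasi-likelihood). DESeq2's Wald test, run with no such filter, called all of them but miR-23b-5p, with an FDR of 8.28e-11 for miR-30b-5p and of 0.0558 to 0.0984 for the rest. Summed as families, the same listing at 0 held for miR-125-5p (at least 516-fold), miR-142-5p (at least 174-fold) and miR-24-3p (at least 367-fold higher in stressed mucus).

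Among the rows tested, 5 (5.49%) were higher in all 3 stressed libraries than in any control, and 4 (4.4%) were lower. Together these were not above the rate of 0.1 for a random order of 3 libraries against 3. Beside miR-26a-5p, the higher rows were miR-152-5p, miR-15d-5p, miR-429-3p/5p and miR-93a-5p. Their fitted changes were 0.74 to 1.46 (log2), and none of these 4 was called. The lower rows were miR-130a-5p, miR-182-5p, miR-192a-5p and miR-222b-5p.

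miR-130a-5p had the smallest p after miR-26a-5p. It had 175, 661 and 23 counts in control and 25, 7 and 46 in stressed libraries. Scaled, these were 200 ± 138 CPM and 31.4 ± 12.6 CPM (SD, n = 3), a change of -2.66 ± 0.86 with an FDR of 0.58 (edgeR quasi-likelihood). miR-192a-5p, known from gut, liver and kidney of vertebrates, had 1060, 4945 and 407 counts in control and 412, 88 and 740 in stressed libraries. Its level was 1621 ± 797 CPM and 488 ± 245 CPM (SD, n = 3), a change of -1.73 ± 0.73 that was not called either. Both rows were lower in 3 of 3 stressed libraries.

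miR-182-5p, a member of a sensory and epithelial cluster, showed the same order at a smaller size, with 620 ± 434 CPM in control and 226 ± 51.2 CPM in stressed mucus (SD, n = 3) and a change of -1.46 ± 0.75. Its cluster partners did not share this direction, with fitted changes of 0.84 ± 0.70 for miR-183-5p and 0.46 ± 0.69 for miR-96-5p. miR-222b-5p changed by -0.90 ± 0.66. After miR-26a-5p, the next smallest FDR of the 91 rows was 0.58.

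The other small p-values came from rows that were high in 1 or 2 control libraries. miR-462a-5p and miR-462b-5p, products of a cluster restricted mostly to fish that responds to interferon there, had 37964 and 18764 counts in control replicate 2. In the other 5 libraries miR-462a-5p had 238 to 1529 counts and miR-462b-5p 91 to 586. Their fitted changes were -3.36 ± 1.35 and -3.71 ± 1.39, and without control replicate 2 they shrank to -0.82 and -1.10.

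In control replicate 1 the row let-7g-5p had 73334 counts, against 149 to 3108 elsewhere. Its fitted change of -4.66 ± 1.97 turned to 0.25 without that library. miR-126-5p, the miRNA of endothelium and fish thrombocytes, had 1848 counts there and 6 to 203 elsewhere, for a change of -3.70 ± 1.78 that was -0.19 without that library. miR-92a-4-5p and the shared row miR-92a-3p/5p had 2328 and 2295 counts there, with 1293 and 1284 in control replicate 2, and changed by -2.55 ± 1.16 and -2.54 ± 1.16, or by -1.22 each without control replicate 1. These 2 rows hold nearly the same counts in all 6 libraries and were not counted as separate evidence.

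Control replicate 1 held the highest scaled level of 31 of the 91 tested rows, and control replicate 2 that of 19. Of the 27 rows with a fitted log2 change under -1, 19 were highest in control replicate 1, 8 in control replicate 2 and 0 in control replicate 3. That none was highest in a stressed library follows largely from how these rows were chosen. Without control replicate 1, 19 of 51 rows and 12 of 32 families with a change below 0 turned above 0. Control replicate 1 was also the library with the highest miR-144 and miR-122, and control replicate 2 the one with the highest white cell markers. Whether these belong together was not tested.

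Summed by number and arm, 65 families were tested and none was called (0%). Before adjustment 1 family had a p of at most 0.05. DESeq2's Wald test, over 95 families with no filter, called miR-125-5p, which was not among the 65. The exact test of edgeR, over the 65, called miR-221-3p. Both families were lower in stressed mucus. The smallest p was that of miR-462-5p, with 836, 56728 and 1004 counts in control and 382, 329 and 2115 in stressed libraries (change of -3.21 ± 1.22, edgeR quasi-likelihood FDR = 0.639). Next in order of p were miR-30-5p, miR-130-5p (-2.07), the miR-92 families, miR-126-5p, miR-192-5p, miR-99-5p, miR-143-5p and miR-203-3p/5p. miR-99-5p, a relative of miR-100, had 6708, 1423 and 164 counts in control and 308, 90 and 1265 in stressed libraries, a change of -2.40 that was -0.11 without control replicate 1. miR-143-5p, known from smooth muscle and connective tissue in mammals, had 1481, 149 and 19 counts in control and 47, 42 and 74 in stressed libraries, a change of -2.77 ± 1.48 that turned to 0.49 without control replicate 1. All changes reported are relative to the scaling. The median log2 change was 0.02 with TMM (65 families), -0.26 with DESeq2's size factors (64) and -0.31 with library totals alone (66).

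**Figure D4:**
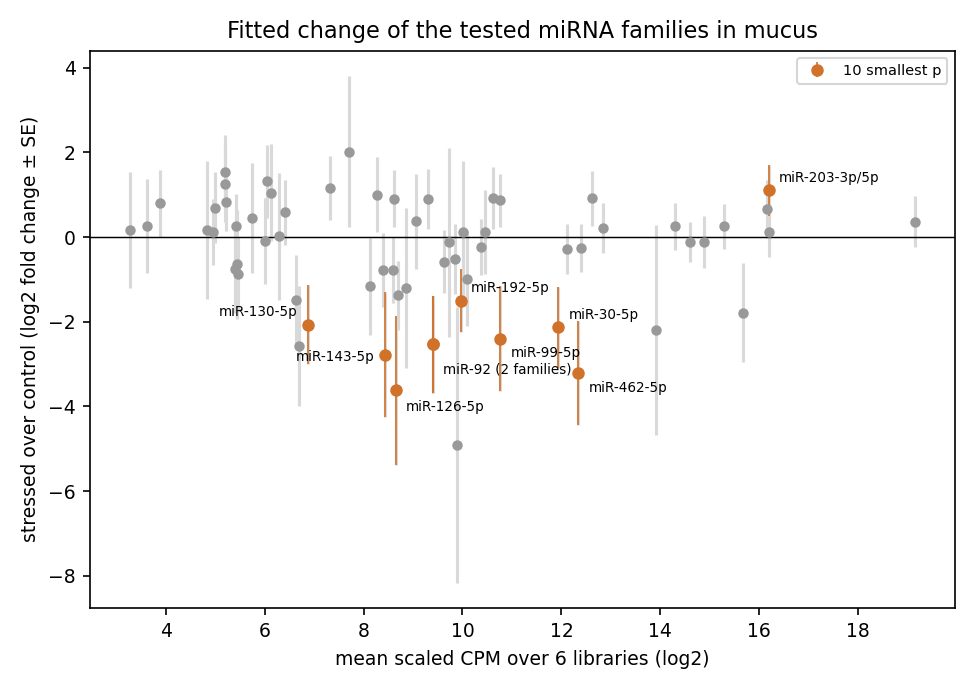
Fitted log2 fold change (stressed over control, y axis, bars are 1 SE) of the 65 tested families against their mean scaled CPM (x axis, log2), with the 10 smallest p in orange. Of these 10 families, 9 have a change below 0 and 1, miR-203-3p/5p, has a change above 0, and none was called.

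Families with non-overlapping levels numbered 4 higher (6.15%) and 1 lower (1.54%) in stressed mucus, together not above the rate of 0.1 for a random order. The higher ones were miR-15-5p (1.16 ± 0.76), miR-205-5p (0.87 ± 0.62), miR-429-3p/5p (0.90 ± 0.67) and miR-93-5p (1.32 ± 0.86), and the lower one was miR-192-5p (-1.50 ± 0.74). miR-205, like miR-203, marks stratified epithelium, and miR-429 belongs to the miR-200 family. miR-205-5p had 900, 2873 and 540 counts in control and 998, 498 and 5346 in stressed libraries, or 1231 CPM and 2245 CPM on average. In the single fit miR-205b-5p, which held 98.1% to 100% of this family, overlapped, at 1517 CPM in control replicate 3 and 1433 CPM in stressed replicate 2. The family's share of known counts overlapped too. miR-182-5p and miR-152-5p, which stood apart among single rows, overlapped after the scaling of the family fit.

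Lists of miRNAs by tissue and relationship were read against all tested families. Of 10 tested families of the epidermis and epithelium list, 7 had a change above 0 and 3 below, with a median of 0.42 and none called. The near-copies miR-200-5p and miR-200-3p are 2 of the 7, and with library totals alone or without control replicate 1 the list had 5 above and 5 below 0 (medians of 0.27 and 0.22). Among all 65 tested families 33 were above and 32 below. The largest changes above 0 in the list were those of miR-203-3p/5p (1.10 ± 0.61), miR-183-5p (0.93 ± 0.73) and miR-429-3p/5p (0.90 ± 0.67), and the lowest was that of miR-182-5p at -1.38 ± 0.81. The list of miR-17, miR-18, miR-19, miR-20, miR-93 and miR-106, which promote proliferation in mammals, had 6 tested families (miR-17-5p, 3 of miR-19, miR-20-5p and miR-93-5p), all with a change above 0, a median of 1.16 and none called. Of these, miR-19-5p (0.12) and miR-20-5p (0.37) turned below 0 without control replicate 2, and miR-19-5p also without control replicate 3 or stressed replicate 2. The 2 tested families of miR-15 were at 0.69 (miR-15-3p, -0.02 without stressed replicate 1) and 1.16, and miR-16 was not counted in mucus.

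Of the lists of blood and vessel miRNAs, all 3 had a median below 0, though that of the erythrocyte list is the value of 1 family. The 4 tested families of the thrombocyte and endothelium list were all below 0, with a median of -2.41, led by miR-221-3p at -4.91 ± 3.25 and miR-126-5p at -3.62 ± 1.76. This rests on control replicate 1, the library with the highest miR-144, without which 3 of the 4 were above 0 and the median was 0.48, with miR-221-3p at 0.83 and miR-126-5p at -0.06. With the replicate block 1 of the 4 was above 0, and the median was -0.89. miR-221-3p had 4756, 141 and 0 counts in control and 0, 63 and 0 in stressed libraries. The 1 tested family of the erythrocyte list, miR-144-5p, was at -2.57 ± 1.42, and at -0.72 without control replicate 1. Of 4 tested leukocyte families 3 were below 0, with a median of -0.45, and of these miR-155-5p turned to 0.02 without control replicate 1. The single liver miRNA, miR-122, did not pass the filter, and no muscle miRNA was counted. None of these families was called.

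The gut and kidney list had 2 tested families above and 2 below 0 (median -0.07, but 0.63 without control replicate 1). The neural list had 1 tested family, miR-9-5p, at 0.45 ± 1.30. It turned to -0.30 with the replicate block, -0.13 with location rows included and -0.10 without stressed replicate 1. The hypoxia and stress list had 3 above 0 (median 0.18, but -0.33 with library totals alone and -0.36 without control replicate 1). In this last list, miR-210, the miRNA most directly induced by low oxygen in mammals, had only 0 to 48 counts a library. The 3 tested families of miR-25 and miR-92 were below 0 (median -2.54, and -1.21 without control replicate 1), of which 2 are the near-copies described above. In the list of miR-10, miR-99 and miR-100 1 family was above and 2 were below 0, with a median of -0.12. That median was 0.03 without control replicate 1. In that of miR-130 and miR-301 2 were above and 1 below (median 0.26, but -0.04 with DESeq2's size factors). With library totals its median was -0.97, but not over the same 3 families, since none of these turned sign there. In that of miR-23, miR-24 and miR-27 2 were above and 2 below. Its median was -0.00, but -0.24 with library totals and 0.32 without control replicate 1 (over 5 families). let-7, miR-26, miR-30 and miR-462 each had 1 tested family below 0, of which let-7 and miR-26 turned above 0 without control replicate 1, miR-125 had none, and no family of these lists was called.

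A share of a family's counts does not depend on scaling, so the makeup of families could be compared directly. In 15 families with at least 100 counts in every library, 44 members were compared, and 9 (20.5%) had shares that did not overlap between treatments. The smallest p that the exact permutation test allows for 3 libraries against 3 is 0.1, so none of them could pass 0.05. The 9 members belong to 5 families, let-7-5p, miR-21-5p, miR-27-5p, miR-30-5p and miR-462-5p. Shares of a family sum to 100%, so the 2 members of miR-21-5p are 1 comparison, as are the 2 of miR-462-5p. A random order of 3 libraries against 3 gives no overlap at a rate of 0.1 for a single share. Since the members are not independent, the 20.5% cannot be read as an excess over that rate.

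**Figure D5:**
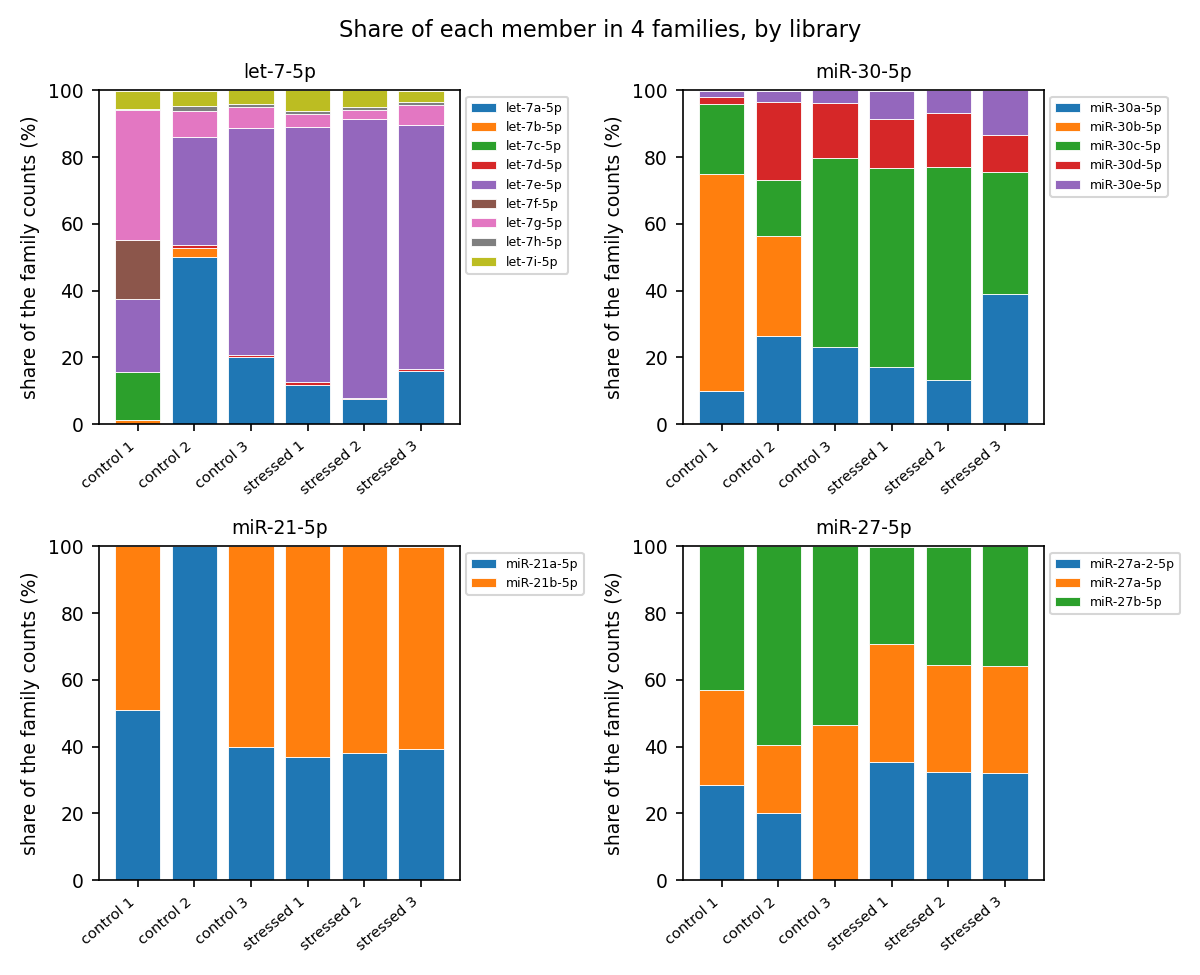
Share of each member (y axis, percent of the family's counts) in let-7-5p, miR-30-5p, miR-21-5p and miR-27-5p, with 1 bar per library. let-7e-5p takes 73.2% to 83.6% in the stressed libraries and 21.8% to 68.0% in the controls, and in miR-30-5p stressed replicate 3 has more miR-30a-5p (39.0%) than stressed replicate 2 (13.3%).

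Stressed mucus had a let-7 family made mostly of let-7e-5p, at 76.2%, 83.6% and 73.2% in replicates 1, 2 and 3. In control mucus let-7e-5p took 21.8%, 32.5% and 68.0%. let-7g-5p was lower, at 4.10%, 2.95% and 6.15% against 38.8%, 7.72% and 6.40%. Control replicate 3 thus lay close to the stressed libraries in both members, and for let-7g-5p its 95% Wilson interval (5.86% to 6.99%) overlapped that of stressed replicate 3 (5.95% to 6.37%). Other let-7 rows varied by library, and the family total behind these shares includes their listings at 0. let-7f-5p and let-7c-5p had 33429 and 27274 counts in control replicate 1 and 0 in each of the other 5 libraries, and let-7a-5p had 0 there and 378 to 9114 elsewhere.

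The miR-30 family, whose mammalian members are abundant in kidney and epithelium, also differed in makeup among control libraries. With miR-30b-5p at 65.0% and 30.2% in control replicates 1 and 2 and 0 in the other 4 libraries, miR-30c-5p was the largest member of control replicate 3 (56.6%) and of stressed replicates 1 and 2 (59.8% and 63.8%). miR-30e-5p was the 1 member with no overlap. It took 1.89%, 3.57% and 3.70% of the family in control and 8.62%, 6.83% and 13.2% in stressed libraries. Its level was not called, at 152 ± 110 CPM and 133 ± 47.4 CPM (SD, n = 3). The family as a whole had 12665, 7665 and 459 counts in control and 766, 483 and 2227 in stressed libraries, a change of -2.13 ± 0.96 (edgeR quasi-likelihood FDR = 0.639) that was -0.84 without control replicate 1.

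In miR-462-5p both members shifted by a few percentage points. miR-462a-5p took 67.1%, 66.9% and 68.2% in control and 71.2%, 72.3% and 72.3% in stressed libraries, and miR-462b-5p the rest. The 95% Wilson intervals of control replicate 3 (65.3% to 71.0%) and stressed replicate 1 (66.5% to 75.5%) overlapped, so the order of those libraries was within counting error. The share held while the family's total in control replicate 2 was 56728 counts.

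In miR-21-5p and miR-27-5p a control library held a count of 0. miR-21b-5p took 63.1%, 61.9% and 60.8% in stressed libraries and 48.9%, 0% and 60.1% in control, with 0 counts in control replicate 2 where miR-21a-5p had 38842. The intervals of control replicate 3 (59.6% to 60.7%) and stressed replicate 3 (60.5% to 61.1%) overlapped. miR-27a-2-5p was at 0 in control replicate 3, where miR-27a-5p had 651 counts, although the counts of the 2 rows were equal in each of the other 5 libraries. miR-27b-5p took 42.9%, 59.5% and 53.4% in control and 29.1%, 35.5% and 35.7% in stressed libraries where the total of control replicate 3 includes that 0.

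Such equal rows were common enough to limit what arm and copy names mean. In 12 pairs of rows of the same number, counts were within 5% of each other in every library where both had at least 20, and in 3 of these pairs 1 row was at 0 in a library where the other had at least 20. miR-200a-1-5p, miR-200a-2-5p and miR-200a-3p had nearly the same counts in all 6 libraries (10918, 10918 and 10915 in control replicate 1, for example). Of the 16 sets of identical rows, 11 hold both arms of a miRNA.

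Arm shares could be compared for 4 miRNA numbers, of which 2 (50%) had non-overlapping 5p shares. For miR-200 this share was 66.7% in each of the 6 libraries, set by the equal rows above, and it says nothing of arms. For miR-148, a miRNA of liver and gut among other tissues, 93.3%, 71.9% and 69.7% of counts were on the 5p arm in control and 62.8%, 63.4% and 67.1% in stressed libraries (exact permutation test, p = 0.1, the smallest it can give). The arms come from different members, so this is also a ratio of miR-148a to miR-148b. The 5p row, miR-148a-5p, had 3048, 269 and 278 counts in control and 409, 237 and 1089 in stressed libraries, and the 3p row, miR-148b-3p, 219, 105 and 121 against 242, 137 and 534. let-7 was at 99.98% to 100% on the 5p arm, and for miR-24 the 3p row was counted in stressed replicates 1 and 2 alone.

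Members of the miR-23, miR-24 and miR-27 clusters showed how far single rows of one family can part. miR-24a-4-5p had 0, 1341 and 198 counts in control and 0, 0 and 760 in stressed libraries. miR-24a-3-5p had 0, 1320 and 29 in control and 26, 0 and 0 in stressed libraries, and miR-24b-5p had 667, 739 and 0 against 215, 119 and 230. miR-24a-5p was counted in stressed replicate 3 alone, at 760, the same count as miR-24a-4-5p there. miR-23a-5p lay between 0 and 3024 counts, and its change of 0.18 ± 1.79 turned below 0 with library totals alone.

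Counts confined to 1 library were not limited to the control group. Among rows counted in a single library with at least 100 counts, miR-7a-5p had 2008 counts in stressed replicate 3 and miR-107-5p had 150 there. Control replicate 1 alone held miR-103-3p and miR-103-5p (1892 and 1941 counts), which in mammals bear on lipid and glucose metabolism. Control replicate 2 alone held miR-128-2-5p and miR-128-3p (667 and 666 counts) and miR-196a-5p (186 counts). In all, 23 rows were counted in 1 library only.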

How the data were processed

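Mucus of 3 control and 3 stressed trout was compared. Per the submitters' notes and the study's methods, reads were trimmed with cutadapt 2.10, aligned with Bowtie 1.1.1 to the rainbow trout genome Omyk_1.0 and assigned with miRDeep2 within miARma-Seq. The deposited table of the authors holds estimated counts with no normalization, and all were whole numbers. The authors' own comparison tables (log2 fold changes, p-values, FDR) were not used. Per the study, miRDeep2 counts a read of different precursors more than once, and miARma-Seq averages the counts of a mature miRNA over its precursors. In stressed replicate 1 all rows together held 23634159 counts, more than the trimmed reads reported for that library. Some of its reads were thus counted more than once. Whether this was so for the rows with equal counts was not tested.

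Rows identical in all 18 libraries were kept once and summed by number and arm. Counts were scaled by TMM, filtered with filterByExpr, scaled again and compared with edgeR 4.0.16 (R 4.3.3) by the quasi-likelihood test without pairing. DESeq2 1.42.0 and edgeR's exact test were alternatives, as were other scalings, no filter, other treatments of identical rows, the replicate block and omission of each library. The fits were also run on simulated counts, and no result given here rests on that run. Shares and detected rows were compared by exact permutation tests (scipy 1.17.1), which cover only these fish.

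Members, lists and markers were chosen with earlier results of these data known. Named miRNAs are those called, the 10 highest families, the 10 smallest p of each fit, rows at 0 in 1 treatment with at least 10 counts in 2 libraries of the other, their families, and list examples. miRNAs with non-overlapping values, counted in 1 library or shown as examples of equal rows were named after their values were seen.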

Additional observations from a re-analysis of the deposited data

Results flagged for a closer look

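Counts on rows named by genomic location, which no comparison above uses, took a larger share of all counts in 2 stressed libraries than in any control library. The share was 96.4% in stressed replicate 1 and 87.8% in stressed replicate 2, against 52.5%, 19.5% and 78.9% in control replicates 1, 2 and 3. It is a share of counts and not of reads, since some reads of stressed replicate 1 were counted more than once. Stressed replicate 3 lay below all controls, at 8.83%.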

How the results depend on the processing

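Replicate numbers are shared by the groups, but control and stressed mucus came from different fish, and libraries of the same number did not deviate together (correlations over the tested rows of -0.05, -0.19 and 0.04). With the replicate block, 0 single miRNAs and 0 families were called, against 1 and 0 without it, and miR-26a-5p had an FDR of 0.631. Among the miRNAs that the block reversed were miR-26b-5p (2.29), miR-26-5p (5.32), miR-30e-5p (0.011), miR-200-3p/5p (0.10) and miR-9-5p (-0.30). Others included let-7e-5p, miR-24b-5p and the families miR-148-5p and miR-199-5p.

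The number of single miRNAs called was 9 with DESeq2's Wald test, over 140 rows with no filter, and 5 with the exact test. It was 1 with the other scalings, no filter, location rows included or either treatment of identical rows. With 1 library left out it was 0 to 5. It was 5 without control replicate 3, where 109 rows were tested, and 0 without any 1 stressed library. Beside miR-26a-5p, the 5 were let-7b-5p, miR-125a-5p, miR-23b-5p and miR-30b-5p. Those 4 rows were at 0 in control replicate 3 and in every stressed library. They did not pass the filter with no library left out. Families called were 1 with DESeq2, over 95 with no filter, and 1 with the exact test. With 1 library left out they were 0 to 1 (1, miR-125-5p, without control replicate 3). They were 0 with the largest row of a family in place of the sum, an alternative chosen after seeing the data. Beyond these changes in the rows tested and the fewer libraries in each omission, the cause was not tested. Without control replicate 1 the changes of let-7g-5p and miR-143-5p reversed, to 0.25 and 0.49 (ranges with 1 library left out of -5.22 to 0.25 and -3.32 to 0.49). So did those of let-7-5p (-2.36 to 0.70), miR-26-5p (-2.79 to 6.18), miR-26b-5p (-5.30 to 2.90), miR-221-3p (-14.05 to 0.83), miR-30e-5p (-0.29 to 0.47), miR-100-5p (-0.26 to 0.034), miR-200-5p (-0.068 to 0.58) and miR-200-3p (-0.068 to 0.58). Omission of another library reversed miR-23a-5p (-0.32 to 0.77), miR-15-3p (-0.020 to 1.19), miR-19-5p (-0.25 to 0.65), miR-20-5p (-0.19 to 1.26), miR-146-5p (-0.19 to 0.95), miR-10-5p (-0.22 to 0.45) and miR-200-3p/5p (-0.66 to 0.55). With library totals, miR-23a-5p was at -0.016, miR-200-5p at -0.015 and miR-200-3p at -0.014. With location rows included, miR-30e-5p was at 0.11, miR-19-5p at -0.27, miR-146-5p at -0.067, miR-10-5p at -0.17, and miR-200-5p and miR-200-3p at -0.26. With no filter miR-30e-5p was at 0.12 and miR-100-5p at 0.17, and with identical rows not merged miR-200-3p was at -0.10. Members with non-overlapping shares numbered 9 to 20 with 1 library left out. They were 16 of 42 without control replicate 1 and 20 of 49 without control replicate 3, against 9 of 44 with no omission. A random order of 2 libraries against 3 gives no overlap more often than 3 against 3. The larger counts are therefore not read as larger shifts. Non-overlapping arm shares numbered 1 at a minimum of 1000 counts. The difference in detected rows ran from -15.3 to 0.833 with 1 library left out, turning to 0.667 without control replicate 1 and 0.833 without stressed replicate 2. Thinning every library to 344347 counts gave -4.53. Changes near 0 turned sign under another scaling in 9 single rows and 10 families, miR-200-5p and miR-200-3p among them. Depth limits rows with few counts in stressed replicate 2, the library with the fewest known counts.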
